A study of Mus musculus with 10 samples.

Results

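Genes that copy DNA and supply its nucleotides were examined in heart ventricles after a sham operation. The group comprised 39 genes chosen by symbol, all 39 of which were found among the 40690 genes of the deposited count table, each under 1 Ensembl identifier. Polyadenylated RNA was sequenced from wild-type C57BL/6 male mice aged 10 weeks, 5 of them naive (no operation) and 5 sham-operated, the surgical control of an ischemia-reperfusion procedure. No transgene or drug is named for either group, and the sources used here do not give the interval between operation and tissue collection. The comparison asks how the transcripts of DNA copying stand after surgery without the ischemic injury.

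Before a cell divides it must copy its genome once. The origin recognition complex (Orc1, Orc6), Cdc6 and Cdt1 load a ring of the subunits Mcm2 to Mcm7 onto DNA, and this ring becomes the active helicase when Cdc45 and the GINS complex (Gins1 to Gins4) join it, with Mcm10 assisting. Primase and polymerase alpha (Prim1, Prim2, Pola1, Pola2) start each strand, polymerases delta and epsilon (Pold1, Pole) extend it on the sliding clamp Pcna, which the Rfc proteins load, Fen1 and Lig1 join the fragments, and the Rpa proteins shield single-stranded DNA. Ribonucleotide reductase (Rrm1, Rrm2), Tyms, Tk1 and Dut supply and cleanse the deoxynucleotide pool, and Uhrf1 guides copying of DNA methylation. Most adult heart muscle cells do not divide, while fibroblasts, macrophages and endothelial cells of the heart can. E2F factors are known to switch on many of these genes at the entry into S phase, whereas Rpa and Rfc proteins also serve DNA repair in cells that do not divide.

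On this background the 39 genes were split into 3 classes. The S-phase restricted class held 19 genes of licensing, helicase activation and nucleotide supply, with Uhrf1. The DNA synthesis class held 11 genes, namely Pcna, Fen1, Lig1, the polymerase and primase subunits, Dut and Orc6. The constitutive class held 9 genes, Rfc1 to Rfc5, Rpa1 to Rpa3 and Rrm1. The classes are a judgement from textbook knowledge, made with earlier results of these data known, so differences between them describe this sorting. Several genes of the DNA synthesis class also rise in S phase. Orc6, of licensing, and Dut, of nucleotide supply, were placed there and not in the S-phase restricted class. The name constitutive is likewise part of the sorting. Whether the RNA of Rrm1 or the Rfc genes stays level through the cell cycle was not tested.

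E2F factors bind short GC-rich sites, so the promoters were searched for TTTCCCGC, TTTCGCGC, TTTGCCGC and TTTGGCGC on both strands, with overlapping matches allowed. RefSeq promoter windows of GRCm38.p6, from 250 bases before to 50 after a start, matched 32 of the 39 genes by symbol. A match stood in 13 of these 32 genes (40.6%), against 2.6% of the 27025 genes with a window. By class it stood in 9 of 15 S-phase restricted genes, 3 of 9 DNA synthesis genes and 1 of 8 constitutive genes, the last being Rfc3. The letters CCAAT stood in 21 of 32 (65.6%) and in 41.1% of all genes. The letters TTTGAA, which mark many promoters of genes of mitosis, stood in 4 of 32 genes (12.5%) and in 20.2% of all genes. A match describes the letters and shows no binding. The 250 bases upstream of a start in 4 genes are given 5′ to 3′ on the strand of the gene. Matches to the E2F-type letters are in capitals. They are 3 genes whose RNA was higher in sham libraries and Rfc1, a clamp loader gene that did not pass the test. These 4 do not stand for the list. Without a match, 7 members were higher, among them Mcm2, Pcna and Rrm2. Gins3, Pola1 and Pold1 had a match and did not pass.
Mcm5 (chr8:75109259-75109508, plus strand): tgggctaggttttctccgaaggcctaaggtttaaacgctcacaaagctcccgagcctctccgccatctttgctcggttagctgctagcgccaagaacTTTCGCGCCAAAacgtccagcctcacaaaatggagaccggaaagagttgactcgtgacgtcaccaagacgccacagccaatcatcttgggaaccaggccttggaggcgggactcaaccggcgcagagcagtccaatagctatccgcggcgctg
Mcm6 (chr1:128359706-128359955, minus strand): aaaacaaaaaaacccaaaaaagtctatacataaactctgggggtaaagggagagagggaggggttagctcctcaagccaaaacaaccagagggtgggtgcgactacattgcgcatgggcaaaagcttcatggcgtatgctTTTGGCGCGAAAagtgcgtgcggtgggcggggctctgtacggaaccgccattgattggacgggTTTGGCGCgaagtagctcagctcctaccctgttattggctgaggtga
Uhrf1 (chr17:56304063-56304312, plus strand): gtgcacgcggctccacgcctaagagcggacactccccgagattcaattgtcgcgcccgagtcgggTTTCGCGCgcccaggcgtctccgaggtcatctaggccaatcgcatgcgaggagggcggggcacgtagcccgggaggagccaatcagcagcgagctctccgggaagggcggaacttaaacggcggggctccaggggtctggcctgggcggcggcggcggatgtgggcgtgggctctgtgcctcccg
Rfc1 (chr5:65335640-65335889, minus strand): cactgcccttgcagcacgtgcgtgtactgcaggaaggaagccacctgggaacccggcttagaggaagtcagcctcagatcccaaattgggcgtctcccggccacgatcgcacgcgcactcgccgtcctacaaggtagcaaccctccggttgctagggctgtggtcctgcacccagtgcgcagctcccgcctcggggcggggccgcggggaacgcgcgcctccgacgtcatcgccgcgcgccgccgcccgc
Overlapping matches on opposite strands formed a continuous run of capitals in Mcm5 and in Mcm6, and Mcm6 held another match nearer its start. No match stood in the 250 bases of Rfc1. Uhrf1 had 2 windows, and the one shown was chosen because it held a match. It begins inside the annotated gene, which starts at 56303321. The other Uhrf1 window, 56303087 to 56303386, held no E2F-type match.

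Library totals ran from 9683181 to 21537135 counts. By library total alone, before the TMM factors, 3 counts correspond to 0.139 to 0.310 CPM. On the TMM scale of the values below, 3 counts in naive 1 were 0.357 CPM. Naive 1 was the shallowest library, and sham 4 had counts in 24214 genes where the other 9 had them in 20235 to 22570, so results were also computed without both. Heart muscle markers were abundant in every library, with 8 of 8 detected and a summed level of 65205 to 68169 CPM in naive and 49162 to 56065 CPM in sham libraries. Of 13622 genes tested, 17.2% had higher and 15.5% lower RNA levels after the sham operation, 32.7% in either direction (edgeR quasi-likelihood test, adjusted p under 0.05). CPM denotes read counts scaled to library size and TMM factors, given as mean ± SD with n = 5, and log2 fold changes are sham against naive ± SE.

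In these classes, sorted with earlier results known, sham ventricles held more RNA of the S-phase restricted genes, and the constitutive genes moved less. Of the 39 genes, 36 passed the filter on low counts, and of these 21 were higher, 0 lower and 15 not past the threshold (median log2 fold change 0.69). Over all genes tested 17.2% were higher and the median was -0.05. At least a 2-fold increase was fitted for 12 of the 36, against a background of 7.3%, and in 16 each sham value exceeded each naive value, against 13.6%; the opposite order held for 0, against 9.18%. Without the filter 20 of 39 were higher, against 2617 of all 30305 genes. No member was lower at an unadjusted p under 0.05 or with DESeq2, and 1 (Dut) was with limma voom. Of the 17 tested S-phase restricted genes 14 were higher, with a median of 1.20 and a range of 0.30 to 2.30. In the DNA synthesis class 4 of 10 were higher (median 0.44, range -0.20 to 1.49), and in the constitutive class 3 of 9 (median 0.19, range -0.31 to 0.82). When only library size was used for scaling, which raised the median of all genes by 0.26, the class medians were 1.47, 0.69 and 0.45 and the higher genes numbered 17 of 17, 7 of 10 and 7 of 9. Under that scaling 4473 of the 13622 genes were higher and 283 lower. Rescaling moved all genes by nearly the same amount, so it could not test the order of the class medians. The counts of higher genes in the DNA synthesis and constitutive classes depended on the scaling.

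**Figure D1:**
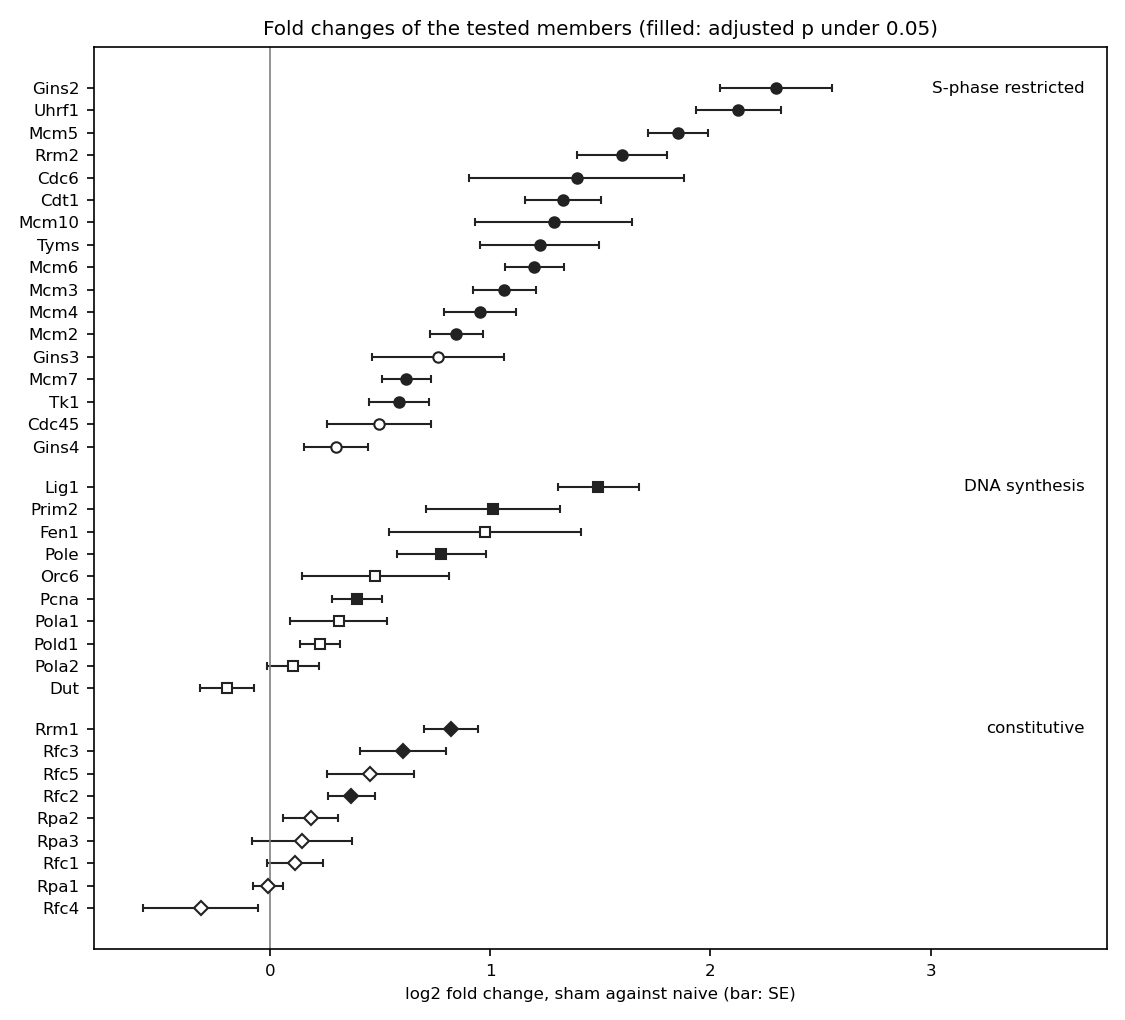
Log2 fold changes of the 36 tested genes on the horizontal axis, sham against naive with SE bars, ordered within the S-phase restricted (circles), DNA synthesis (squares) and constitutive (diamonds) classes; filled symbols passed the adjusted p threshold. Gins2 and Uhrf1 lie farthest to the right at 2.30 and 2.13, and Rpa1 lies at -0.01.

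The 6 subunits of the helicase ring all rose. Mcm5 (chromosome 8, 75109569 to 75128439 on the plus strand of GRCm38), a subunit of the ring, stood at 3.33, 3.45, 3.24, 4.15 and 3.66 CPM in naive 1 to 5 and 10.2, 14.9, 14.0, 12.2 and 13.2 CPM in sham 1 to 5. The lowest sham library lay above the highest naive library, and the fitted log2 fold change was 1.85 ± 0.14 (edgeR adjusted p = 5.72e-08). Mcm6 stood at 5.95, 5.11, 4.50, 5.41 and 5.68 CPM in naive 1 to 5 and 10.2, 13.7, 14.3, 10.7 and 12.2 CPM in sham 1 to 5, again without overlap, a log2 fold change of 1.20 ± 0.13 (edgeR adjusted p = 4.37e-06). Mcm3 rose from 6.40 ± 0.943 to 13.4 ± 2.29 CPM, Mcm4 from 6.31 ± 1.00 to 12.3 ± 2.42 CPM and Mcm2 from 10.7 ± 0.927 to 19.3 ± 3.05 CPM. Mcm7 had the smallest increase of the ring, at 0.62 ± 0.11 on the log2 scale. In sham 4 Mcm4 was at 8.03 CPM, below the 12.6 to 14.2 of the other sham libraries but still above each naive library.

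Because the ring holds 1 copy of each subunit, the levels were also compared per kilobase of annotated exon (RPKM). In naive libraries Mcm5 was lowest at 0.893 ± 0.0913 RPKM and Mcm7 highest at 1.91 ± 0.212, with Mcm6 at 1.14 ± 0.120, Mcm2 at 1.54 ± 0.133, Mcm3 at 1.71 ± 0.251 and Mcm4 at 1.76 ± 0.280. Mcm5 was the lowest of the 6 in 5 of 5 naive libraries and in 0 of 5 sham libraries. In sham libraries the levels ran from 2.62 ± 0.382 RPKM in Mcm6 to 3.57 ± 0.610 in Mcm3, with Mcm5 at 3.23 ± 0.453. The highest subunit exceeded the lowest by 1.97 to 2.64 times within a naive library (median 2.17) and by 1.36 to 1.71 times within a sham library (median 1.45). Those ranges did not overlap. The lengths count the exons of all isoforms, and both the order of the subunits and these ratios rest on them, since other lengths were not tested.

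**Figure D2:**
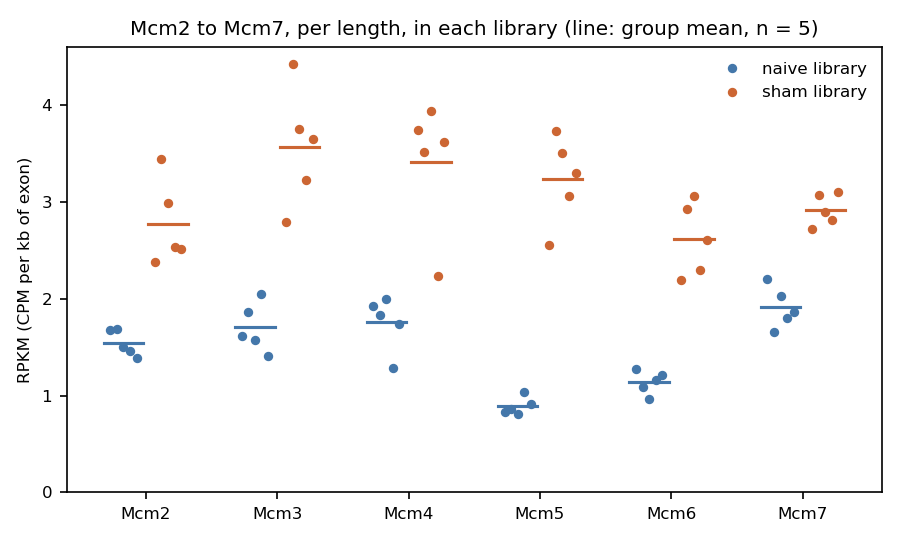
RPKM (CPM per kilobase of exon) of Mcm2 to Mcm7 in each naive (blue) and sham (orange) library, with lines at the group means. Naive points spread from Mcm5, lowest at 0.893 RPKM on average, to Mcm7 at 1.91, and sham means lie between 2.62 and 3.57.

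Genes that license origins and activate the helicase divided. Cdt1, the loader of the ring, stood at 5.95, 2.95, 3.48, 4.00 and 3.79 CPM in naive 1 to 5 and 11.4, 11.0, 10.0, 8.97 and 8.52 CPM in sham 1 to 5, without overlap and with a log2 fold change of 1.33 ± 0.17 (edgeR adjusted p = 2.05e-05). Gins2 had the largest fold change of the 36 genes: it stood at 0.595, 0.369, 0.790, 0.862 and 1.07 CPM in naive 1 to 5 and 2.94, 4.37, 3.49, 3.57 and 3.95 CPM in sham 1 to 5, or 2.30 ± 0.25 on the log2 scale (edgeR adjusted p = 4.25e-06). Of its exon bases 67.3% are shared with Gse1 on the opposite strand, and reads without strand cannot be assigned between them. Gse1 had 69.1 ± 15.3 CPM in the naive group and 62.9 ± 13.1 in the sham group and did not pass (edgeR adjusted p = 0.566). Mcm10 rose from 0.751 ± 0.325 to 1.80 ± 0.756 CPM, with sham 5 at 3.14 CPM and the other sham libraries at 1.29 to 1.56. The other GINS subunits did not pass: Gins3 was at 0.76 ± 0.30 (adjusted p = 0.0632) and Gins4 at 0.30 ± 0.15 (adjusted p = 0.127), and Gins1 was too low to be tested, with 39 counts over the naive and 67 over the sham libraries. Gins3 passed without naive 2 or sham 5 (adjusted p = 0.0365 and 0.0374) and with library size alone (0.0141). Gins4 passed with limma voom (0.37, adjusted p = 0.0278) and with library size alone (adjusted p = 0.00614). Gins4 had the highest level of the 4 per length in both groups, at 4.74 ± 0.718 RPKM in naive libraries, where Gins2 was at 0.180 ± 0.0654. The length of Gins2 includes the bases shared with Gse1, where reads may have gone uncounted, so its level per length may be understated.

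Cdc45, which joins GINS on the ring, stood at 1.90, 1.78, 1.66, 2.74 and 2.40 CPM in naive 1 to 5 and 1.56, 3.54, 3.29, 2.86 and 3.46 CPM in sham 1 to 5 and did not pass (log2 fold change 0.50 ± 0.24, adjusted p = 0.121). Its sham 1 value of 1.56 CPM was the lowest of all 10 libraries, and without sham 1 it passed at 0.64 (adjusted p = 0.0252). With all libraries kept it passed with limma voom (0.76, adjusted p = 0.00878) and with library size alone (adjusted p = 0.0225). Cdc6, a partner of Cdt1 in loading, was near the detection floor, with 25 counts over the naive and 93 over the sham libraries. It passed at 1.39 ± 0.49 (edgeR adjusted p = 0.0387), but the groups overlapped. The call was lost on leaving out naive 2, 4, 5 or sham 2, 4, 5 singly (range of adjusted p 0.0616 to 0.107), naive 1 with sham 4 (0.0635), and with limma voom (0.0799). Orc1, the cell cycle regulated subunit of the origin complex, was too low to be tested, with 20 and 38 counts, and Orc6 was at 0.48 ± 0.33 (adjusted p = 0.301).

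**Figure D3:**
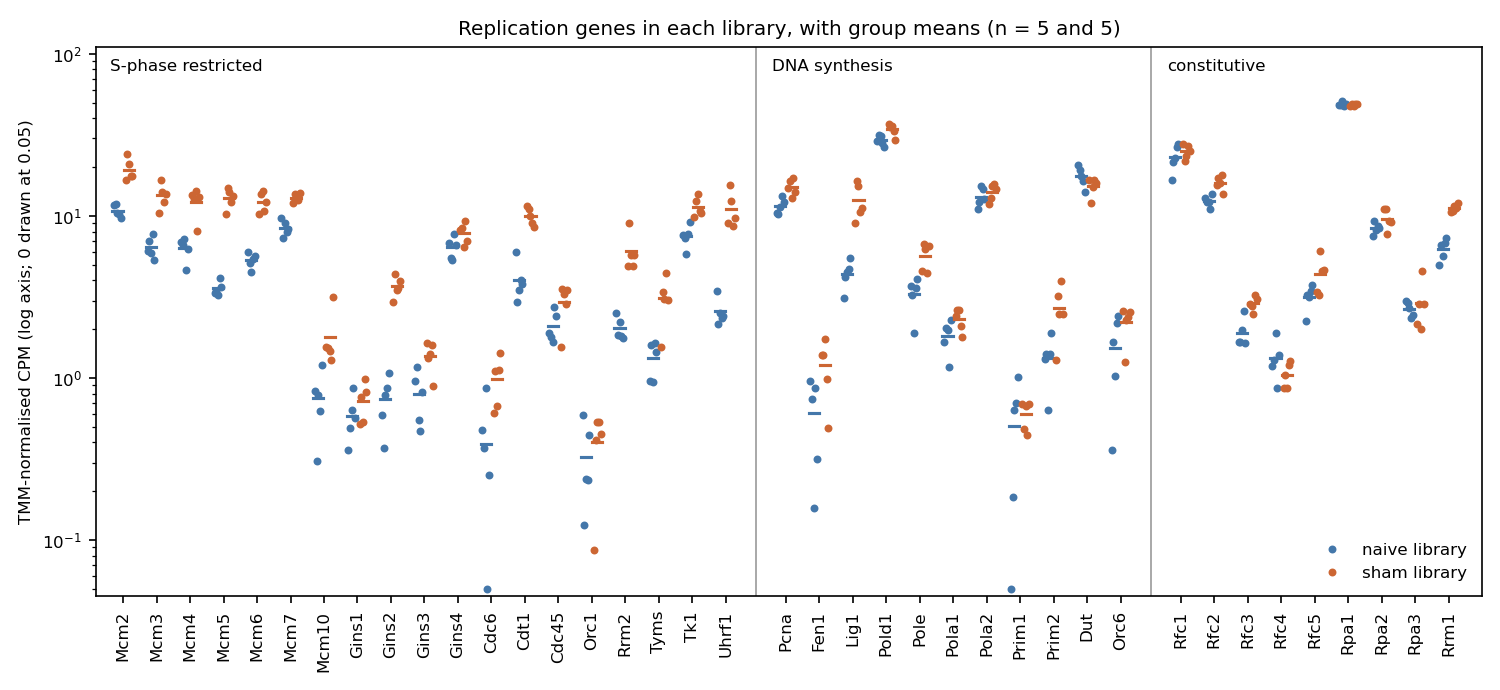
TMM-normalised CPM on a log axis of all 39 genes in each naive (blue) and sham (orange) library, with lines at the group means and a count of 0 drawn at 0.05. The 2 colours separate for Mcm2 to Mcm7, Cdt1, Rrm2 and Uhrf1 and coincide for Rpa1, with means of 48.8 (naive) and 48.5 (sham) CPM.

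Among the genes of nucleotide supply, the S-phase enzymes were higher. Rrm2, the small subunit of ribonucleotide reductase that is made in S phase and then degraded, stood at 2.50, 1.85, 2.21, 1.80 and 1.77 CPM in naive 1 to 5 and 4.94, 9.03, 5.77, 4.91 and 5.75 CPM in sham 1 to 5. No sham library fell into the naive range, and the log2 fold change was 1.60 ± 0.20 (edgeR adjusted p = 1.92e-05). The large subunit Rrm1, placed in the constitutive class, also rose, from 6.28 ± 0.920 to 11.2 ± 0.575 CPM (0.82 ± 0.12, edgeR adjusted p = 8.45e-05), and its groups did not overlap. Thymidylate synthase Tyms, which makes dTMP, rose from 1.32 ± 0.345 to 3.11 ± 1.04 CPM, with sham 1 at 1.56 CPM inside the naive range. Thymidine kinase Tk1, which salvages thymidine, stood at 7.61, 7.32, 5.85, 7.76 and 9.22 CPM in naive 1 to 5 and 9.79, 12.4, 13.6, 10.7 and 10.4 CPM in sham 1 to 5, a smaller log2 fold change of 0.59 ± 0.14 (edgeR adjusted p = 0.00396). Dut, which destroys dUTP, was the exception in this group. It was at 17.6 ± 2.49 CPM in the naive and 15.3 ± 1.95 in the sham group with a log2 fold change of -0.20 ± 0.12 (adjusted p = 0.245), was called lower with limma voom (-0.29, adjusted p = 0.0355) and was at 0.07 with library size alone.

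Ratios of gene pairs within a library do not depend on the scaling factors. An exact two-sided permutation test over the 10 libraries, whose smallest possible p is 0.00794, was applied to 4 pairs. The pairs were chosen with earlier results known, so their p-values describe them and are no independent support. Mcm5, for example, had the largest fold change of the ring, and Rfc1 did not pass. Rrm2 was compared with Rrm2b, the subunit that serves cells outside S phase. The ratio of their counts was 0.301, 0.180, 0.215, 0.168 and 0.141 in naive 1 to 5 and 0.511, 1.31, 0.820, 0.765 and 0.682 in sham 1 to 5, so that every sham value exceeded every naive value. It was 4.01 times higher (exact permutation p = 0.00794, adjusted over the 4 ratios 0.0159). Rrm2b itself fell from 10.6 ± 1.54 to 7.70 ± 1.35 CPM (log2 fold change -0.47 ± 0.14, edgeR adjusted p = 0.0178). The Rrm2b call was lost without naive 5, sham 2 or sham 4 (edgeR adjusted p of 0.0501 to 0.0651). It was also lost with library size alone (-0.21, edgeR adjusted p = 0.332). The ratio of Mcm5 to the clamp loader gene Rfc1 was 0.203, 0.162, 0.145, 0.159 and 0.132 in naive and 0.367, 0.683, 0.601, 0.452 and 0.528 in sham libraries, 3.25 times higher with the same exact permutation p-values. Against Rrm1, the ratio of Rrm2 was 0.506, 0.281, 0.393, 0.269 and 0.247 in naive and 0.469, 0.845, 0.501, 0.439 and 0.482 in sham libraries. These values overlapped, with naive 1 above 4 of 5 sham libraries, and the ratio was 1.63 times higher (exact permutation p = 0.0397, adjusted 0.0397). That call was lost without any library other than naive 1 (adjusted exact permutation p of 0.0556 to 0.0873). Tk1 against the mitochondrial kinase Tk2 gave a ratio 1.38 times higher (exact permutation p = 0.0317, adjusted 0.0397), with 3 of 5 sham libraries above all naive ones. The Tk1 call was lost without naive 2 or 3, without any of the 5 sham libraries (adjusted exact permutation p of 0.0556 to 0.0847) and with naive 1 and sham 4 both left out (0.114).

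**Figure D4:**
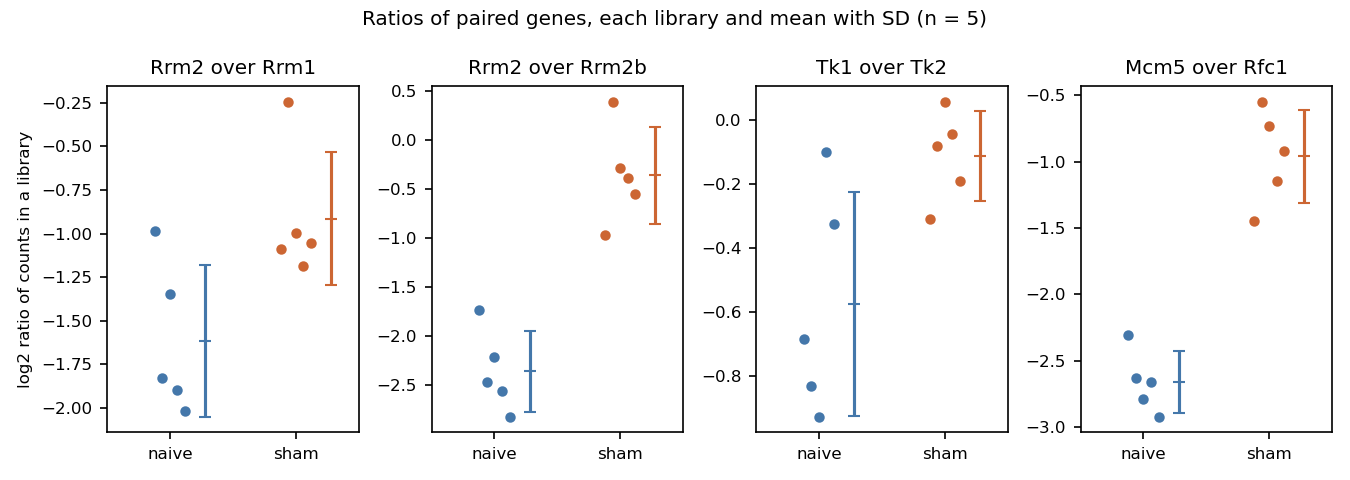
Log2 ratio of the counts of 4 gene pairs in each naive (blue) and sham (orange) library, with the mean and SD of each group beside the points. The groups separate for Rrm2 over Rrm2b (means -2.36 and -0.36) and for Mcm5 over Rfc1 (-2.66 and -0.96) and overlap for the other pairs.

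Uhrf1, which binds hemimethylated DNA at the fork, stood at 3.45, 2.15, 2.53, 2.35 and 2.40 CPM in naive 1 to 5 and 9.09, 15.6, 12.4, 8.70 and 9.70 CPM in sham 1 to 5. Its groups were far apart, with a log2 fold change of 2.13 ± 0.19 (edgeR adjusted p = 4.89e-07). Its partner in copying methylation, the methyltransferase Dnmt1, was at a higher level and changed less, from 35.5 ± 1.48 to 55.1 ± 7.16 CPM (0.63 ± 0.09, edgeR adjusted p = 8.07e-05).

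In the DNA synthesis class the DNA ligase Lig1 led. It stood at 3.09, 4.18, 4.50, 4.70 and 5.49 CPM in naive 1 to 5 and 9.09, 16.5, 15.4, 10.6 and 11.2 CPM in sham 1 to 5, without overlap, and rose by 1.49 ± 0.18 on the log2 scale (edgeR adjusted p = 1.40e-05). The polymerase epsilon catalytic subunit Pole rose from 3.31 ± 0.846 to 5.68 ± 1.08 CPM and the primase subunit Prim2 from 1.33 ± 0.453 to 2.69 ± 0.990 CPM. Prim2 overlapped between the groups, and with naive 1 and sham 4 left out its adjusted p was 0.0596. The clamp Pcna stood at 10.4, 10.3, 11.3, 13.2 and 12.2 CPM in naive 1 to 5 and 14.9, 16.4, 12.9, 17.2 and 14.1 CPM in sham 1 to 5, so that sham 3 lay below naive 4. Its log2 fold change of 0.40 ± 0.11 passed (edgeR adjusted p = 0.0143). The polymerase delta subunit Pold1, the gene of this class with the most reads, was at 29.2 ± 2.02 CPM in the naive and 34.2 ± 2.97 in the sham group (0.23 ± 0.09, adjusted p = 0.0620). It passed without sham 4 or sham 5 (adjusted p = 0.0349 and 0.0258), with both naive 1 and sham 4 left out (0.0453) and with library size alone (4.48e-04). Polymerase alpha subunits Pola1 and Pola2 were at 0.31 ± 0.22 and 0.10 ± 0.12 and did not pass. Prim1 was too low to be tested, with 36 counts over the naive and 52 over the sham libraries. The flap nuclease Fen1, with 38 and 96 counts, was at 0.98 ± 0.44 (adjusted p = 0.0997) and passed without sham 5 (0.0390), with limma voom (0.0384) and with library size alone (0.0311). Of its exon bases 84.2% are shared with other genes, mainly the antisense gene Gm10143, which had 0 counts in naive libraries and 0.0456 ± 0.0649 CPM in sham libraries.

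The constitutive class was led in level by Rpa1, the large subunit of the single-strand binding complex, which stood at 48.2, 48.1, 51.0, 47.8 and 48.9 CPM in naive 1 to 5 and 47.7, 49.2, 47.8, 48.7 and 48.8 CPM in sham 1 to 5. All 10 libraries lay within 47.7 to 51.0 CPM, a log2 fold change of -0.01 ± 0.07 (edgeR adjusted p = 0.928), though with library size alone it was called higher at 0.26 (adjusted p = 0.0202). Rpa2 was at 0.19 ± 0.13 and Rpa3 at 0.14 ± 0.23, neither past the threshold. Of the clamp loader genes, Rfc1, the large subunit, was at 0.11 ± 0.13, Rfc5 at 0.46 ± 0.20 and Rfc4 at -0.31 ± 0.26, none past it. Rfc2 rose from 12.4 ± 1.01 to 16.0 ± 1.59 CPM, and its lowest sham value, 13.65 CPM in sham 5, was barely above its highest naive value, 13.64 CPM in naive 5. Rfc3 passed at 0.60 ± 0.19 (adjusted p = 0.0260), but did not without naive 2, naive 5 or sham 5 (adjusted p of 0.0574 to 0.0673), without a filter (0.0741) or with naive 1 and sham 4 left out (0.0697). Beside the promoter letters, 9 of 12 tested genes with an E2F-type match were higher (median log2 fold change 1.13) and 7 of 18 without a match (median 0.47). The match stood in 9 of 15 S-phase restricted and 1 of 8 constitutive genes. This contrast therefore overlaps with the class split. Within the S-phase restricted class, Mcm2, Mcm10, Rrm2, Tk1 and Tyms were higher without a match, and Cdc45 did not pass. With a match, Cdc6, Cdt1, Mcm3, Mcm5 to Mcm7 and Uhrf1 were higher, and Gins3 did not pass. The share of higher genes among all genes with the letters was not computed. Because the genes were not chosen at random, these counts are a description of the list.

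Sham libraries differed among themselves. Sham 1 had the lowest sham value in 16 of the 36 tested genes and in 10 of the 17 S-phase restricted ones, and sham 2 had the highest in 12 and 7. Summed over the 19 S-phase restricted genes, levels were 66.2 to 76.6 CPM in naive libraries and 127, 168, 153, 132 and 142 CPM in sham 1 to 5. The sums of the DNA synthesis class were 81.6 to 86.9 CPM in naive and 99.9 to 111 CPM in sham libraries, and those of the constitutive class 98.4 to 115 and 118 to 128 CPM. No class sum overlapped between the groups, but the naive mean of the S-phase restricted sum was 70.4 ± 4.10 and the sham mean 144 ± 16.6 CPM, whereas the constitutive means were 108 ± 6.20 and 121 ± 3.75. Most of the constitutive sum came from Rpa1 (48.8 CPM in naive and 48.5 in sham libraries) and Rfc1 (23.0 and 25.0). Rrm1, at 6.28 and 11.2 CPM, was a smaller part of it.

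**Figure D5:**
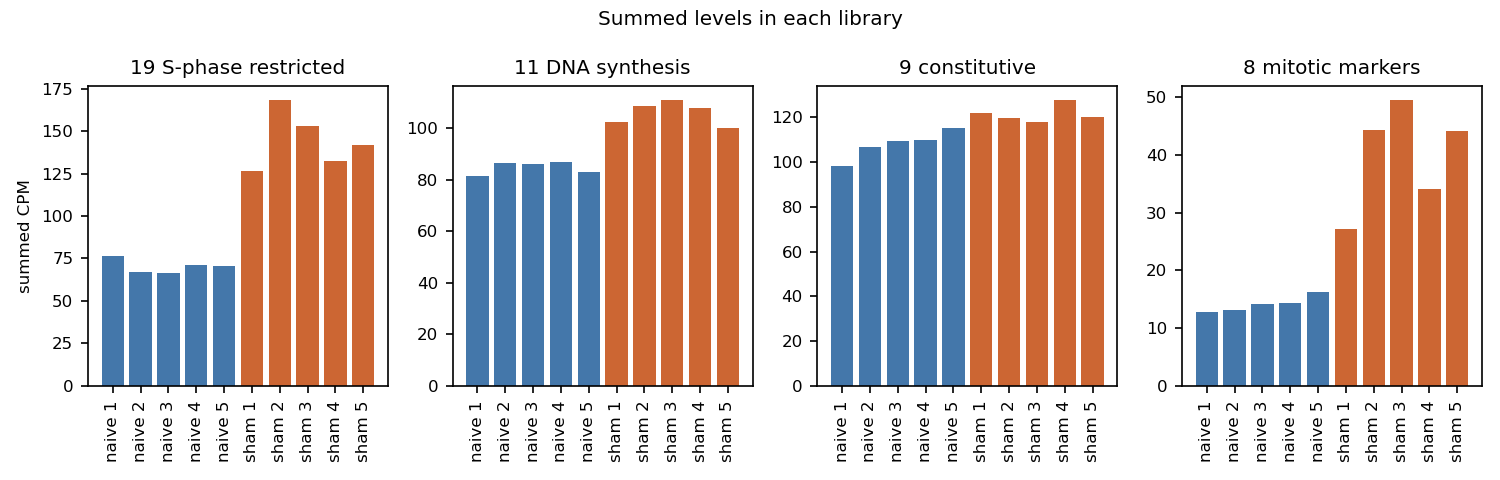
Bars give the CPM summed over each class of replication genes and over 8 mitotic marker genes in naive (blue) and sham (orange) libraries, each panel with its own axis from 0. Among the sham libraries, sham 1 is lowest in the S-phase restricted sum (127 CPM) and in the mitotic sum (27.1 CPM).

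Markers of dividing cells and of some other cell types moved in the same comparison. Beside the counts below stand the shares over all genes tested, 17.2% higher and 15.5% lower. The 8 mitotic markers summed to 12.7 to 16.3 CPM in naive libraries and to 27.1, 44.2, 49.4, 34.1 and 44.1 CPM in sham 1 to 5, with 5 of 6 tested members higher. All 8 macrophage and monocyte markers were higher, with sums of 275 to 334 CPM in naive and 832 to 985 CPM in sham libraries. Fibroblast markers were higher in 7 of 8 cases, with sums of 909 to 1183 and 7055 to 12215 CPM, most of it Col1a1. Endothelial markers were higher in 0 of 8 and lower in 4 (sums 1180 to 1449 and 1056 to 1169.5 CPM), and mural cell markers higher in 0 and lower in 2 of 8. Heart muscle markers were lower in 7 of 8. Neutrophil markers summed to 1.82 to 4.80 CPM in naive and 14.5 to 31.5 CPM in sham libraries. Lymphocyte markers summed to 0.923 to 1.78 CPM in naive and 2.43 to 2.77 CPM in sham libraries, without overlap. These sums are low, and 0 of 8 lymphocyte markers were abundant enough to be tested. Of the red cell precursor markers, 0 of 4 tested passed. Of the listed markers, Cd3d had 0 counts in naive libraries. The part of these cell types in the replication gene changes was not tested, and in bulk tissue more cells of a type and more RNA per cell cannot be told apart.

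The remaining genes of DNA replication, in a list taken from textbook roles, also divided. Of 41 other fork genes, 38 were tested, and of these 16 were higher, 0 lower and 22 not past the threshold (median log2 fold change 0.28), where all genes had 17.2% higher, 15.5% lower and a median of -0.05. At an unadjusted p under 0.05, 2 were lower, and DESeq2 called 0 and limma voom 2. The 6 of smallest p among the higher genes were Top2a, which untangles copied DNA, Chaf1b, which places histones behind the fork, Ticrr and Dbf4, which help to fire origins, Clspn, of the fork checkpoint, and Dnmt1. Top2a rose by 2.40 ± 0.21, Ticrr by 2.39 ± 0.31, Chaf1b by 1.98 ± 0.24, Clspn by 1.84 ± 0.27 and Dbf4 by 1.60 ± 0.27 on the log2 scale. The origin complex subunits Orc2 and Orc4 were at -0.05 ± 0.27 and -0.06 ± 0.21, with adjusted p of 0.918 and 0.850, and both turned positive with library size alone (0.22 and 0.19).

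Of 20 other enzymes of nucleotide supply, all tested, 5 were higher, 2 lower and 13 not past the threshold (median 0.09). These shares lie near those of all genes, 17.2% higher and 15.5% lower, and the genes are named as a description. Samhd1, which breaks down deoxynucleotides, rose from 40.1 ± 3.24 to 74.1 ± 12.8 CPM (0.89 ± 0.11, edgeR adjusted p = 1.75e-05). Deoxycytidine kinase Dck, a salvage enzyme, rose by 0.92 ± 0.20, CTP synthase Ctps2 by 0.83 ± 0.20, Impdh1, of guanine nucleotide synthesis, by 0.40 ± 0.07 and Cad, which starts pyrimidine synthesis, by 0.33 ± 0.09. The 2 lower genes were Gmps, of guanine nucleotide synthesis, at -0.43 ± 0.12, and Shmt1, of one-carbon supply, at -0.51 ± 0.15, the latter named after its value was seen. The count of lower genes in the fork and nucleotide lists together was 5 without naive 1, 1 without sham 2, 4 with naive 1 and sham 4 left out and 0 with library size alone.

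Genes that copy mitochondrial DNA or feed its nucleotide pool did not follow the S-phase genes. Of 12 tested, 0 were higher and 5 lower, where 15.5% of all genes were lower (median -0.31), and with library size alone 1 was higher and 0 lower. None was higher at an unadjusted p under 0.05, with DESeq2 or with limma voom. The lower genes were Polg, the mitochondrial DNA polymerase, from 118 ± 11.1 to 93.1 ± 13.2 CPM, the helicase Twnk (-0.45 ± 0.10), the RNA polymerase Polrmt (-0.28 ± 0.08), the pyrimidine nucleotide carrier Slc25a33 (-0.60 ± 0.13) and Rrm2b. Their number was 3 without sham 2. The Polg call was lost without naive 2, sham 2 or sham 5 (edgeR adjusted p of 0.0516 to 0.0701). It was also lost with naive 1 and sham 4 left out (0.0725), and that of Polrmt without a filter (0.0798). The mitochondrial thymidine kinase Tk2 was at 11.3 ± 1.80 CPM in the naive and 12.2 ± 0.846 in the sham group and did not pass (0.12 ± 0.12, adjusted p = 0.510).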

How the data were processed

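The authors deposited unnormalised HTSeq counts for each Ensembl gene (GRCm38, per the file headers), made from single-end, unstranded poly(A) libraries, per the labels' protocols. The submitters' processing notes also list Bowtie2, TopHat2 2.1.1, DESeq and edgeR, with no roles. The sources used here give neither annotation release nor counting mode. Of 41264 rows, 574 repeated an identifier with the same counts and were collapsed. Groups came from the sample titles; nothing says how mice were housed or processed, and p-values reflect only the spread between samples, which may be technical.

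Genes were kept by filterByExpr (minimum count 10, minimum total 15) in edgeR 4.0.16, scaled with TMM and tested with the robust quasi-likelihood F test on the group alone, with Benjamini-Hochberg adjustment over all 13622 genes and a threshold of 0.05. SE was derived from the fold change and F. Ratios used counts plus 0.5. Coordinates, exon lengths and exon overlap are those of GENCODE M21 (GRCm38), and promoter sequences those of RefSeq on GRCm38.p6. The members, classes, other gene lists, markers and ratios were chosen with earlier results of these data known. All members could be named; of each other list up to 6 genes of smallest p past the threshold and up to 3 of largest p could be named, with the partners of the ratios.

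Alternatives were DESeq2 1.42.0, limma 3.58.1 voom with sample weights, RLE factors, library size alone, no filter, 1 CPM in 5 libraries, no robust estimation, the replicate number as a block, each library left out, naive 1 and sham 4 left out together, and a pseudocount of 1 for ratios, in R 4.3.3. On simulated counts of 13503 genes with 200 changed, 52.5% of 1.5-fold, 79.2% of 2-fold and 97.5% of 4-fold changes were recovered and 8 of 150 calls were false. That simulation changed far fewer genes than were called here. No samples were left out of the main comparison. The floor of 3 counts covers counting error only.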

Additional observations from a re-analysis of the deposited data

Results flagged for a closer look

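In 7 of 80 groups of 5 values (36 genes and 4 ratios in each group), 1 library lay apart from the other 4 by more than 0.71 of the range of the group on the log2 scale, where chance gives about 5%. All 7 lay among the sham libraries. Sham 2 was the highest for Rrm2, at 9.03 CPM against 5.77 CPM in the next library, and for the log2 ratio of Rrm2 over Rrm1, at -0.24 against -0.996. It was the lowest for Dut, at 11.9 CPM against 15.2 CPM, and for Orc6, at 1.25 CPM against 2.28 CPM. Sham 4 was the lowest for Mcm4, at 8.03 CPM against 12.6 CPM. Sham 1 was the lowest for Cdc45, at 1.56 CPM against 2.86 CPM. Sham 5 was the highest for Mcm10, at 3.14 CPM against 1.56 CPM.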

How the results depend on the processing

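Of the 21 higher members, 18 kept their direction and passed under each of the 19 alternatives, and Cdc6, Prim2 and Rfc3 did not. The count of higher members was 19 to 23 under all alternatives except library size alone, where it was 31, and 19 to 22 with 1 library left out. With library size alone the higher genes numbered 7 in the DNA synthesis class, 7 in the constitutive class, 32 in the other fork and nucleotide lists and 1 in the mitochondrial list, and the lower genes 0 in each of these lists. With limma voom 1 member, 5 genes of the other fork and nucleotide lists and 7 of the mitochondrial list were lower. That setting called more genes lower in general, 3269 of 13622 against 2113 in the main fit. The other fork and nucleotide lists had 4 lower genes with naive 1 and sham 4 left out and 1 to 5 with 1 library left out, and the mitochondrial list 3 to 5. Signs turned for genes near 0. Rpa1 was at 0.26 with library size alone, 0.0172 without a filter, 0.0103 with naive 1 and sham 4 left out and -0.0210 to 0.0182 with 1 library left out. Rpa3 was at -0.0436 with limma voom, -0.0323 with naive 1 and sham 4 left out and -0.0639 to 0.25 with 1 left out. Dut was at 0.0716, Orc2 at 0.22 and Orc4 at 0.19 with library size alone. Orc2 was at 0.0719 with naive 1 and sham 4 left out, and with 1 left out Orc2 ran from -0.20 to 0.12 and Orc4 from -0.16 to 0.0932. With 1 library left out the log2 ratio of Rrm2 over Rrm1 was higher by 0.53 to 0.86 and that of Tk1 over Tk2 by 0.37 to 0.58; the latter was 0.42 with naive 1 and sham 4 left out. The causes were not tested. Gins1, Orc1 and Prim1 were too low in counts to be tested at this depth.

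Same-numbered libraries of the groups shared deviations in part (Pearson's r across genes of 0.227, 0.0350, 0.00801, 0.293 and 0.292 for numbers 1 to 5), and numbers 2 and 3 did not correlate best with their own, so the numbers were not taken to pair the samples. With the replicate number as a block, 22 members were higher, Pold1 being the 1 added (adjusted p = 0.0331). With complete pairs the differences of the ratios are by arithmetic those without the block, 0.70 (Rrm2 over Rrm1), 2.00 (Rrm2 over Rrm2b), 0.46 (Tk1 over Tk2) and 1.70 (Mcm5 over Rfc1), and an exact sign-flip test of 5 pairs cannot pass 0.05 (adjusted p of 0.0833 to 0.125).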
